A study of Mus musculus with 8 samples.

Results

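The extracellular matrix and fibrosis genes described here are 39 genes that encode collagens, the enzymes that crosslink them, elastic fibre proteins, small proteoglycans, matricellular glycoproteins, TGF-beta ligands, matrix proteases with an inhibitor, and a transcription factor of activated fibroblasts. They were taken by name from a list and not by a filter on their values, though the list was chosen with earlier results of these data known. They are 39 of the 19056 named genes with a tested probe. All 39 were measured, by 48 of the 35329 probes tested, and 38 of them were well above background on all 8 arrays. The exception was Cthrc1, which was well above background on 2 of 3 NPRA-/- arrays and on 4 of 5 NPRA+/+ arrays.

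Total RNA came from the myocardium, the heart muscle, of male mice that had received no treatment. The 3 NPRA-/- samples carry the label of a knockout of NPRA, encoded by Npr1, the guanylyl cyclase receptor of the natriuretic peptides that the heart secretes. The line was a conditional one with floxed alleles (NprAflox/flox) from a model organisms centre, and the series title calls the deficiency cardiac-specific. The 5 NPRA+/+ samples are labelled wild type. Their source names also carry a number, which is 1 for replicates 1, 2 and 3, 2 for replicate 4 and 3 for replicate 5. The Cre driver, the cells in which it is active, the age of the mice and whether the NPRA+/+ mice carried floxed alleles are not stated in the labels. Although the design text mentions m6A, an RNA modification, GEO types the series as expression profiling, and the signals were read as transcript levels.

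The matrix of the heart is a network of fibrillar collagen around and between muscle cells, basement membranes of network collagen against the cells, and elastic and adhesive proteins that link them. Fibroblasts make most of the fibrillar collagen. In fibrosis they become activated, largely through TGF-beta signalling, and deposit collagen, fibronectin and periostin, while lysyl oxidases crosslink the new fibres and metalloproteases and their inhibitors set its turnover. Natriuretic peptide signalling through NPRA is known as a brake on cardiac growth and fibrosis, so the comparison asks how matrix transcripts stood in hearts labelled as lacking the receptor.

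Levels are log2 signals relative to the 75th percentile of the same array, whose signal lay between 775 and 1253. A change is the fitted log2 difference, NPRA-/- minus NPRA+/+, with its standard error from limma over 3 and 5 arrays. Each array held 79.5% to 92.6% of its probes well above background, and precision is limited by how few arrays there were. The Npr1 probe was close to background, with levels of -6.42, -5.53 and -5.59 on the NPRA-/- arrays and -6.55 to -4.77 on the NPRA+/+ arrays (change 0.031 ± 0.40, limma adjusted p = 0.978), so it does not check the labels. All 7 cardiomyocyte markers were well above background on all 8 arrays. Replicate 1 was far out on principal component 1 (47.3% of the variance) in both genotypes, which set it apart, at -101 and -113, from the other 6 arrays at -4.68 to 69.3. These were also the arrays scanned on days of their own. Scan day 1 was the only one of 4 days with both genotypes (replicates 2 and 3 of each). No slide, as inferred from scan times, held both genotypes. On day 1 the NPRA-/- arrays were on slide 2 and the NPRA+/+ arrays on slide 1. Genotype and slide therefore cannot be told apart, within day 1 or over all 8 arrays. The fit with slide as a random block put the correlation within slides at 0.872. The median change over all probes tested was 0.21, and by signal it was 0.63 in the dimmest and 0.046 in the brightest of 5 groups of probes. Changes below are also given relative to the median of all probes. The 2 brighter groups, with medians of 0.049 and 0.046, held 28 of the 39 matrix genes. For these genes, subtracting the median of all probes gives lower values than subtracting that of their own group, called probes of like signal below.

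None of the 39 matrix genes passed the test for a difference between the genotypes. At a limma adjusted p of 0.05 over all probes, 0 of 39 were called higher and 0 lower, beside 0.32% of all probes called higher and 0.0283% called lower. The smallest adjusted p was 0.241, for Postn. At an unadjusted limma p of 0.05, 2 of the 39 (5.13%) were higher and 0 lower, against 18.3% and 1.36% of all probes. They were Postn (limma, unadjusted p = 0.0443) and Col1a1 (limma, unadjusted p = 0.048). The arrays of the genotypes did not overlap for 2 genes, Col1a1 and Col6a2, both higher on every NPRA-/- array (5.13%, against 14.1% of all probes). Both shares were below those of all probes, which include more dim probes with a larger upward shift. With 1 probe a gene, 3088 of 19056 genes were higher at that unadjusted limma p. In 2468 of them the genotypes did not overlap, with NPRA-/- higher, whatever the p. Shares among probes of like signal were not computed. The fitted change was above 0 for 33 of the 39 (84.6%, against 75% of all probes), but under other scalings for 14 (to the median) to 32 (normexp). Relative to the median of all probes, 17 were above and 22 below, with a median of -0.041. Against probes of like signal, 25 were above and 14 below, with a median of 0.076. Class medians on this scale were 0.17 for fibrillar, -0.23 for basement membrane and network, and 0.025 for microfibril and fibril-associated collagens. They were -0.005 for crosslinking enzymes, -0.039 for elastic fibre genes, -0.082 for small proteoglycans and 0.196 for glycoproteins. For TGF-beta ligands the value was 0.001, for proteases and their inhibitor 0.201, and for Meox1, the transcription factor, 0.049.

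The intervals say how large a difference could have gone unseen. The 95% interval of the change lay within 1 log2 unit (2-fold) on either side of 0 for 32 of the 39 genes, and held 0 for 37. Its width on either side of the estimate was 0.28 for the narrowest gene, Eln, 0.49 at the median, and 1.17 for the widest, Comp. For most of these transcripts a change of over 2-fold in either direction lay outside the interval of this fit. Correlation within slides, put at 0.872 by the fit with slide as a random block, or an animal shared by arrays would make these intervals too narrow. Other scalings move them, as for Col4a1, at -0.26 ± 0.21 here and -0.55 ± 0.26 with median scaling. In whole tissue, fewer cells of a type and less RNA per cell cannot be told apart.

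**Figure D1:**
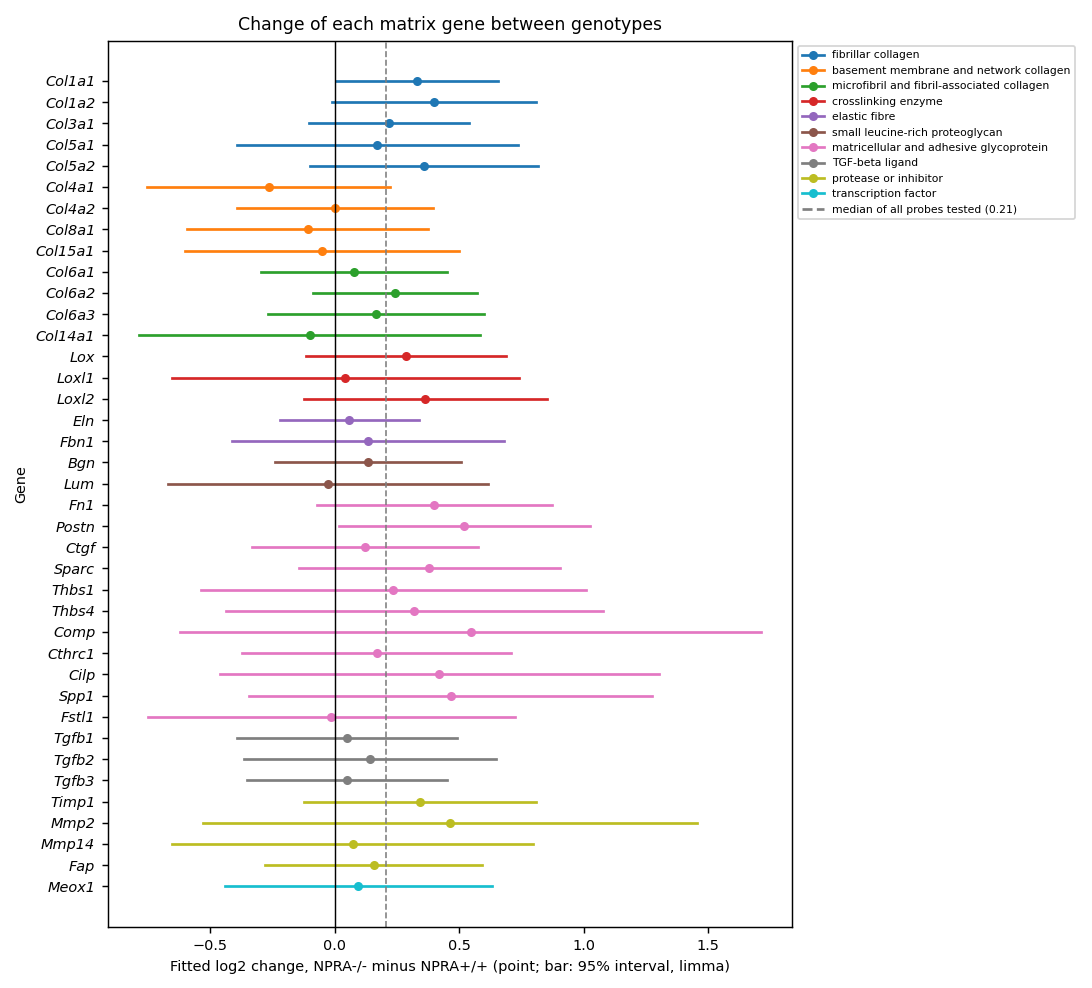
Fitted log2 change, NPRA-/- minus NPRA+/+, of the 39 matrix genes with the 95% interval from limma (3 and 5 arrays), coloured by class; the solid line marks 0 and the dashed line the median of all probes tested, 0.21. Only the intervals of Postn and Col1a1 lie wholly above 0, under the scaling to the 75th percentile, and Comp has the widest.

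The 5 fibrillar collagen genes encode the chains of the tension-bearing fibres (Col1a1, Col1a2 and Col3a1) and of the type V collagen that nucleates them (Col5a1 and Col5a2). All 5 had a fitted change above 0, with a median of 0.33, or 0.12 relative to all probes. Scaled to the median of each array, 3 of 5 were above 0, and the class median relative to all probes was -0.040 without NPRA-/- replicate 3 and -0.14 with normexp background correction. Col1a1 and Col1a2, the 2 chains of type I collagen, kept a change above 0 under all 24 alternative settings, as did Col5a2. Not all of these settings were separate checks. The other probe filters and the trended robust variance leave a fitted change as it was, as does averaging probes where a gene has 1. Scan day as a block gave the same changes as day 1 alone. The share of all probes that kept their sign was not counted.

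Col1a1 stood at 4.16, 4.31 and 4.62 on the NPRA-/- arrays and at 4.16, 3.95, 3.94, 4.02 and 4.10 on the NPRA+/+ arrays. The genotypes did not overlap, but the lowest NPRA-/- array and the highest NPRA+/+ array, both replicate 1, lay at 4.163 and 4.156. The change was 0.33 ± 0.14 (95% interval 0.004 to 0.66, limma adjusted p = 0.25), a fold of 1.26, and between 0.045 and 0.54 over the alternatives.

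Col1a2 stood at 3.53, 3.49 and 4.00 on the NPRA-/- arrays and at 3.04, 3.20, 3.47, 3.17 and 3.50 on the NPRA+/+ arrays. NPRA-/- replicate 3 was the highest, and NPRA-/- replicate 2 lay just below NPRA+/+ replicate 5. The change was 0.40 ± 0.18 (limma adjusted p = 0.263), and 0.24 without NPRA-/- replicate 3. The 150 bases before its transcript start, from the RefSeq promoter table (GRCm38.p6, chr6:4505468-4505617, plus strand), are shown because both type I chains kept their sign in every setting. Capitals mark CCAAT, a box that common promoter factors bind.
Col1a2: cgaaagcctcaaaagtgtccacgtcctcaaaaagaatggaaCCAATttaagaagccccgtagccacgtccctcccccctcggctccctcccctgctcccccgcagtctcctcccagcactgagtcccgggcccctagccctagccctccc

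Col5a2 stood at -2.49, -2.42 and -1.92 on the NPRA-/- arrays and at -2.28, -2.54, -2.96, -2.68 and -2.70 on the NPRA+/+ arrays. NPRA+/+ replicate 1 was above 2 of the 3 NPRA-/- arrays. Its change was 0.36 ± 0.20 (limma adjusted p = 0.363). Col3a1, the chain of the thinner type III fibres and the neighbour of Col5a2 on its chromosome, ran from 4.03 to 4.43 on the NPRA-/- arrays and from 3.85 to 4.06 on the NPRA+/+ arrays, with a change of 0.22 ± 0.14. Col5a1 had the widest spread of the class within each genotype, with replicate 1 lowest in both, and a change of 0.17 ± 0.25.

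**Figure D2:**
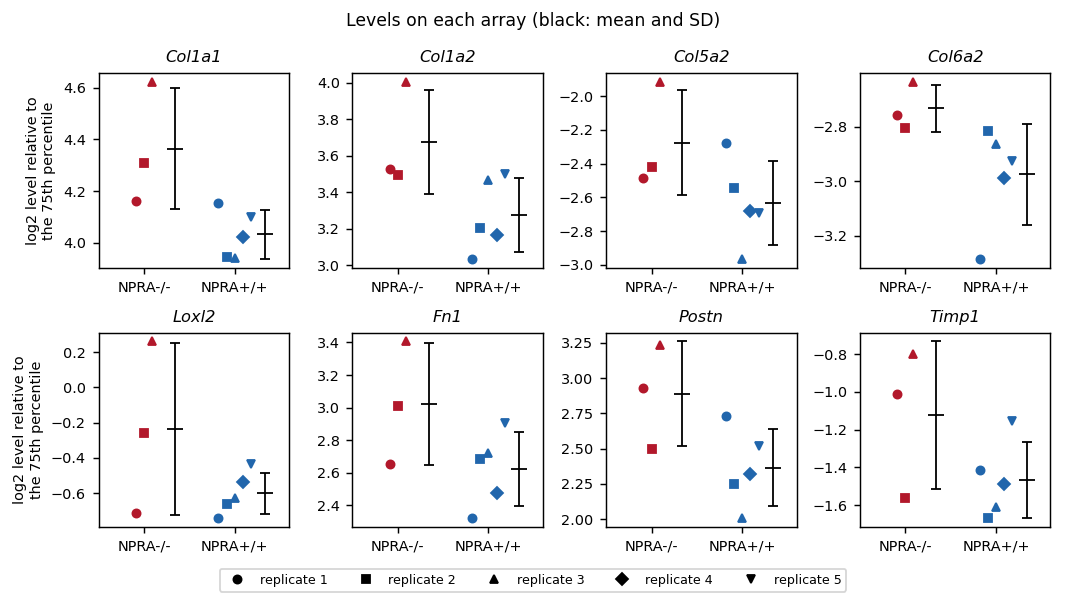
Level on each array, log2 relative to the array's 75th percentile, of the 8 matrix genes with the smallest p-values; symbols give the replicate, and bars the mean and SD over 3 NPRA-/- and 5 NPRA+/+ arrays. NPRA-/- replicate 3 (triangle) is the highest of the 8 arrays for each of the 8 genes.

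The basement membrane and network collagens line cells and vessels. Col4a1 and Col4a2 encode the common chains of type IV collagen, Col8a1 a short-chain network collagen of vessels and Col15a1 a collagen that ties basement membrane to fibres. This class had the lowest median, -0.080, or -0.29 relative to all probes. Relative to all probes its median stayed below 0 in each of the 4 other settings plotted by class, at -0.53 to -0.21. The fitted changes themselves were below 0 for 3 of 4 genes, 2 of 4 with normexp and all 4 under the other scalings.

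Col4a1 stood at 1.11, 1.29 and 1.40 on the NPRA-/- arrays and at 1.11, 1.57, 1.86, 1.24 and 1.88 on the NPRA+/+ arrays. Its 3 highest arrays were all NPRA+/+, and replicate 1 of both genotypes was lowest. The change of -0.26 ± 0.21 (limma adjusted p = 0.541) was below 0 in all 24 alternative settings, between -0.55 and -0.18, and Col4a1 was the only one of the 39 genes of which this holds. Col4a2, which starts from the same intergenic stretch on the opposite strand, had a change of 0.002 ± 0.17, with NPRA+/+ replicate 4 at -0.15 and the other 7 arrays between 0.14 and 0.46. The 2 RefSeq promoter windows, 250 bases before to 50 after the start, share 78 bases.

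Col8a1 had a change of -0.11 ± 0.21. The brightest of 3 Col15a1 probes had a change of -0.051 ± 0.24, with NPRA-/- arrays from -4.78 to -3.61 around NPRA+/+ arrays from -4.25 to -4.02. The other probes for Col15a1 gave 0.99 ± 0.78 and 0.41 ± 0.21, so its probes disagreed in sign.

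The microfibril and fibril-associated collagens are the 3 chains of type VI collagen, a beaded filament that anchors cells to the fibres, and Col14a1, which sits on the surface of collagen fibrils. Their median change was 0.12, or -0.086 relative to all probes, with 3 of 4 above 0, and 0 of 4 when arrays were scaled to the median.

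Col6a2 stood at -2.76, -2.80 and -2.64 on the NPRA-/- arrays and at -3.29, -2.82, -2.86, -2.99 and -2.93 on the NPRA+/+ arrays. The genotypes did not overlap, though replicate 2 of each lay close together, at -2.804 and -2.816. The change was 0.24 ± 0.14 (limma adjusted p = 0.392), and it turned below 0 with quantile normalization (-0.048) and with median scaling (-0.042). Its genomic neighbour Col6a1 stood at 2.24, 2.46 and 2.64 on the NPRA-/- arrays and at 2.07, 2.52, 2.34, 2.33 and 2.58 on the NPRA+/+ arrays, overlapping except for NPRA-/- replicate 3, the highest of the 8. Its change was 0.079 ± 0.16 (limma adjusted p = 0.838), and -0.21 with median scaling. Col6a3 had a change of 0.17 ± 0.19. Col14a1 had a change of -0.10 ± 0.30 by its brighter probe, where NPRA-/- replicate 1 lay at -0.80 and replicate 3 at 0.57, and -0.34 ± 0.28 by the other.

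Of the crosslinking enzymes, Lox, Loxl1 and Loxl2 encode lysyl oxidases, which join collagen and elastin chains. The median change was 0.29, or 0.078 relative to all probes, with 3 of 3 above 0, and 2 of 3 with quantile or median scaling. Loxl2 stood at -0.71, -0.26 and 0.26 on the NPRA-/- arrays and at -0.74, -0.66, -0.63, -0.54 and -0.44 on the NPRA+/+ arrays. NPRA-/- replicates 2 and 3 lay above every NPRA+/+ array and replicate 1 near the lowest of them. Its change was 0.37 ± 0.21 (limma adjusted p = 0.385) by this probe, and 0.24 ± 0.18 and -0.067 ± 0.18 by the 2 dimmer probes.

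Loxl1 stood at -0.61, -0.005 and 0.40 on the NPRA-/- arrays and at -0.83, 0.14, -0.10, -0.079 and 0.30 on the NPRA+/+ arrays. Replicate 1 was lowest in both genotypes and the rest overlapped. Its change was 0.043 ± 0.30 (limma adjusted p = 0.957), and 0.42 ± 0.23 by its other probe. Lox had a change of 0.29 ± 0.18 by its brighter probe and of 0.38 ± 0.16 by the dimmer one (unadjusted p = 0.0491, adjusted p = 0.253, limma).

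Eln and Fbn1 encode elastin and fibrillin-1, the core and the scaffold of elastic fibres. Fbn1 stood at 0.56, 1.46 and 1.61 on the NPRA-/- arrays and at 1.03, 1.03, 1.14, 0.95 and 1.24 on the NPRA+/+ arrays. The NPRA-/- arrays lay on both sides of a tight NPRA+/+ group, with SDs of 0.57 and 0.11. The change was 0.13 ± 0.24 (limma adjusted p = 0.805), and that of Eln was 0.059 ± 0.12, the smallest error of all 39 genes. Both were below 0 when arrays were scaled to the median.

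Bgn and Lum encode biglycan and lumican, small leucine-rich proteoglycans that bind collagen fibrils. Bgn stood at -2.72, -2.49 and -2.11 on the NPRA-/- arrays and at -2.72, -2.51, -2.54, -2.66 and -2.44 on the NPRA+/+ arrays. NPRA-/- replicate 3 lay above the NPRA+/+ range, replicate 1 at its lower end and replicate 2 inside it, and the change of 0.13 ± 0.16 (limma adjusted p = 0.702) was -0.12 with quantile normalization. Lum stood at 1.40, 2.16 and 2.69 on the NPRA-/- arrays and at 1.70, 2.15, 2.20, 2.27 and 2.22 on the NPRA+/+ arrays. Replicate 1 was lowest in both genotypes and NPRA-/- replicate 3 highest. The change was -0.028 ± 0.28 (limma adjusted p = 0.971), and 0.24 within scan day 1, where neither replicate 1 was scanned.

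The 11 matricellular and adhesive glycoproteins range from signals between matrix and cells to proteins of the matrix itself, such as fibronectin. Their median change was the highest of the classes, 0.38, or 0.17 relative to all probes, with 10 of 11 above 0, and 7 of 11 when arrays were scaled to the median. Relative to all probes the class median was 0.48 within scan day 1, -0.18 without NPRA-/- replicate 3 and -0.098 with normexp, and close to 0 with the source name number as a block (0.020) or with NPRA+/+ arrays of 1 such number averaged (0.006).

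Postn encodes periostin, a marker of activated fibroblasts that supports collagen crosslinking. It stood at 2.93, 2.50 and 3.24 on the NPRA-/- arrays and at 2.73, 2.25, 2.01, 2.32 and 2.52 on the NPRA+/+ arrays. NPRA-/- replicates 1 and 3 were the 2 highest of the 8, and replicate 2 fell within the NPRA+/+ range. The change was 0.52 ± 0.22 (95% interval 0.017 to 1.03, limma adjusted p = 0.241), a fold of 1.44 with an interval of 1.01 to 2.04. It was above 0 in all 24 alternatives, from 0.24 to 0.74, with 0.35 without NPRA-/- replicate 3.

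The RefSeq table holds 2 starts for Postn. The 150 bases before the downstream one (GRCm38.p6, chr3:54360957-54361106, plus strand) are shown because Postn had the smallest p of the 39 genes. Capitals mark TATAAA, the TATA box letters.
Postn: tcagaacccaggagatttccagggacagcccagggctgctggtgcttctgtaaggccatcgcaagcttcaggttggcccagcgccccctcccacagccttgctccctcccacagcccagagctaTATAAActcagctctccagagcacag

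Fn1 encodes fibronectin, on which collagen fibres assemble. It stood at 2.65, 3.01 and 3.41 on the NPRA-/- arrays and at 2.32, 2.68, 2.72, 2.48 and 2.91 on the NPRA+/+ arrays. NPRA-/- replicates 2 and 3 were the 2 highest, and replicate 1 lay inside the NPRA+/+ range. The change was 0.40 ± 0.21 (limma adjusted p = 0.326), above 0 in all 24 alternatives.

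Sparc encodes osteonectin, a collagen-binding glycoprotein. It stood at 6.09, 5.34 and 5.61 on the NPRA-/- arrays and at 5.76, 5.10, 5.35, 5.28 and 5.01 on the NPRA+/+ arrays, with a change of 0.38 ± 0.23 (limma adjusted p = 0.399). Replicate 1 was the highest array of both genotypes, and Sparc was the only one of the 39 with both of them above the other 6 arrays (19.9% of all probes). Its second probe set these 2 arrays further apart, at 5.02 and 4.87 against 3.18 to 3.62 for the other 6, and gave 0.44 ± 0.49.

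The other 8 glycoproteins overlapped between the genotypes. Comp, a pentameric protein of cartilage and tendon, had the largest fitted change of all 39 genes and also the largest error, 0.55 ± 0.51, with NPRA-/- arrays from -1.79 to -0.052 and NPRA+/+ arrays from -2.74 to -0.84. Spp1 (osteopontin) had a change of 0.47 ± 0.35, and Cilp, a matrix protein of activated cardiac fibroblasts, of 0.42 ± 0.38. These 3 were above 0 in all 24 alternatives. For the thrombospondins, which activate TGF-beta or bind matrix, the changes were 0.24 ± 0.34 (Thbs1) and 0.32 ± 0.33 (Thbs4), with NPRA-/- replicate 3 at 0.79 and 1.54 as the highest array. Cthrc1, an activated fibroblast marker, had 0.17 ± 0.24 close to background, and Ctgf, the TGF-beta target now named Ccn2, 0.12 ± 0.20. Fstl1, a secreted follistatin-like glycoprotein, had -0.014 ± 0.32, with replicate 1 of both genotypes at 2.61 and 2.82 and the other 6 arrays between 3.45 and 3.98.

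The 3 TGF-beta ligands drive fibroblast activation. Their changes were close together, 0.050 ± 0.19 for Tgfb1, 0.14 ± 0.22 for Tgfb2 and 0.050 ± 0.18 for Tgfb3, with a class median of -0.16 relative to all probes and of 0.041 by quantile normalization. All 3 were above 0, but 2 of 3 with quantile normalization and 0 of 3 when arrays were scaled to the median. Tgfb2 stood at -0.059, -0.55 and 0.43 on the NPRA-/- arrays and at -0.42, -0.10, -0.14, -0.021 and -0.33 on the NPRA+/+ arrays. The NPRA-/- arrays were both the highest and the lowest of the 8 (limma adjusted p = 0.776), and its second probe gave -0.045 ± 0.17. Tgfb3 stood at 0.61, 0.21 and 0.51 on the NPRA-/- arrays and at 0.12, 0.57, 0.63, 0.16 and 0.46 on the NPRA+/+ arrays, in full overlap (limma adjusted p = 0.909). Within scan day 1 its change was -0.25.

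Timp1 encodes a secreted inhibitor of metalloproteases, Mmp2 a gelatinase, Mmp14 the membrane protease that activates it, and Fap the surface protease of activated fibroblasts. All 4 changes were above 0, with a median of 0.25, or 0.041 relative to all probes, and 2 of 4 when arrays were scaled to the median. Timp1 stood at -1.01, -1.56 and -0.80 on the NPRA-/- arrays and at -1.42, -1.67, -1.61, -1.49 and -1.15 on the NPRA+/+ arrays. NPRA-/- replicates 1 and 3 were the 2 highest and replicate 2 among the lowest (change 0.34 ± 0.20, limma adjusted p = 0.395, above 0 in all 24 alternatives).

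Mmp2 had a change of 0.46 ± 0.43 that rests on 1 array. NPRA+/+ replicate 5 lay at -2.98 while the other 7 arrays lay between -1.25 and -0.86, and without it the change was 0.10. Fap stood at -0.61, -0.36 and -0.18 on the NPRA-/- arrays and at -0.93, -0.36, -0.32, -0.71 and -0.38 on the NPRA+/+ arrays. NPRA-/- replicate 3 was highest and NPRA+/+ replicate 1 lowest, with a change of 0.16 ± 0.19 (limma adjusted p = 0.7). Mmp14 had a change of 0.072 ± 0.32, with replicate 1 lowest in both genotypes.

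Meox1 encodes a homeobox factor that is switched on in activated cardiac fibroblasts. It stood at 1.53, 1.84 and 2.37 on the NPRA-/- arrays and at 1.66, 1.75, 2.00, 1.49 and 2.20 on the NPRA+/+ arrays. NPRA-/- replicate 3 was highest, the rest overlapped, and the change was 0.096 ± 0.23 (limma adjusted p = 0.865), below 0 with median scaling and with normexp.

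**Figure D3:**
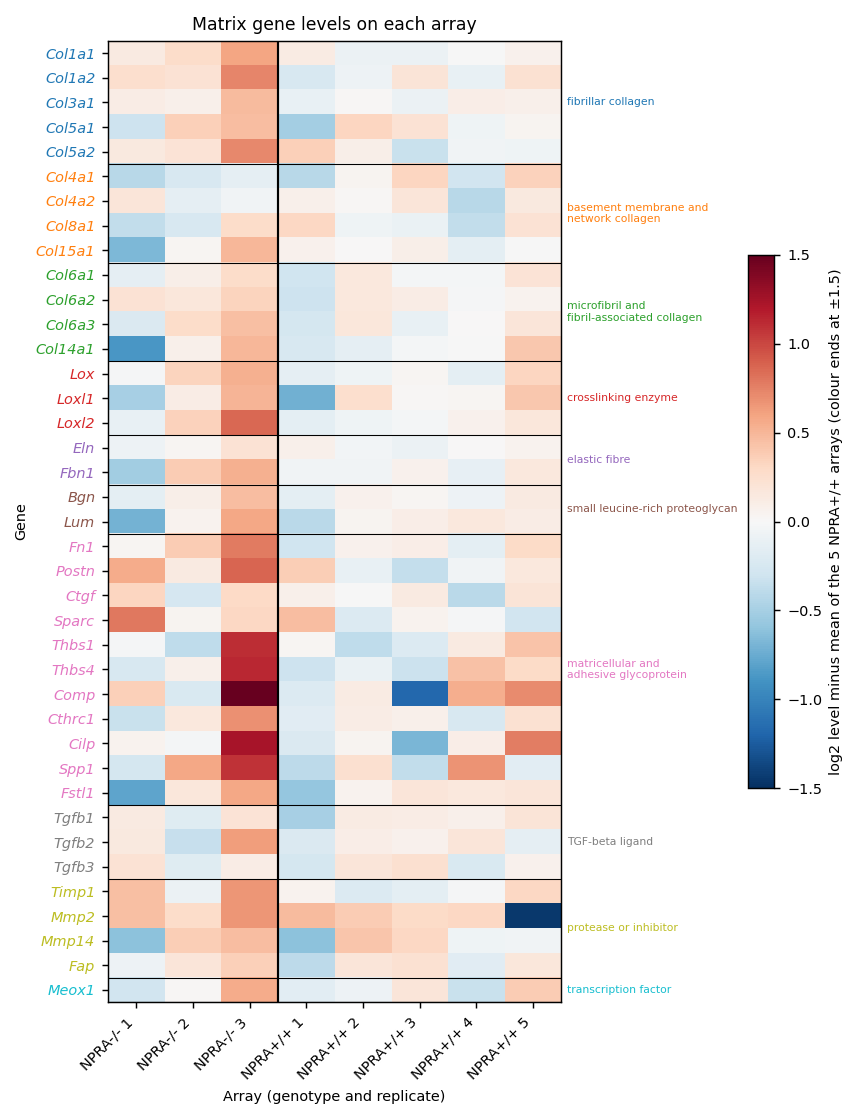
Level of each of the 39 matrix genes on each array, as the log2 difference from the mean of the 5 NPRA+/+ arrays, ordered by class; colour ends at 1.5 on either side. The column of NPRA-/- replicate 3 is above the NPRA+/+ mean for 37 of 39 genes, that of replicate 2 for 28 and that of replicate 1 for 17.

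NPRA-/- replicate 3 stood apart from the other arrays in these genes. It was the highest of all 8 arrays for 33 of the 39 genes, although it was highest for 12.8% of all probes. Other genes of these pathways shared this in part: the same array was highest for 34 of 110 of them with a value on every array (30.9%). The 6 exceptions were Col4a1, Col4a2, Col8a1, Ctgf, Sparc and Tgfb3, so the class with the fewest such genes was that of basement membrane and network collagens (1 of 4), beside 5 of 5 fibrillar collagens and 9 of 11 glycoproteins. Within its genotype, NPRA-/- replicate 3 was highest for 35 of 39 genes and lowest for 0 (24.7% and 31.5% of all probes), while replicate 1 was lowest for 24 and replicate 2 for 15. Among the NPRA+/+ arrays, replicate 5 was highest for 19 (13.4% of all probes) and replicate 1 lowest for 20 (36.5%). Of the other pathway genes, NPRA-/- replicate 3 was highest within its genotype for 10 of 13 of elastic fibres and latent TGF-beta binding, 6 of 10 proteoglycans and 11 of 22 TGF-beta and matrix receptors and signalling genes, but for 3 of 15 basement membrane components. In the remaining pathway lists it was so for 2 of 6 collagens, 5 of 14 collagen processing, 6 of 14 matricellular and 6 of 17 protease and inhibitor genes. Among cell markers it was 5 of 6 for mesothelium and epicardium, 4 of 6 for cartilage and tendon, 3 of 5 for macrophages and 3 of 7 for fibroblasts. It was 2 of 6 for endothelium and for skeletal muscle, 1 of 2 for activated fibroblasts, 1 of 6 for smooth muscle and pericytes and 1 of 7 for cardiomyocytes. These counts leave out markers that are among the 39 genes. For activated fibroblasts that leaves only Acta2 and Tagln of 7 markers. Those left out, Postn, Cthrc1, Meox1, Cilp and Comp, were each highest on replicate 3 within the genotype.

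The median of the 39 genes, as a difference from the NPRA+/+ mean, was -0.071, 0.083 and 0.54 on NPRA-/- replicates 1, 2 and 3. On the NPRA+/+ arrays it was -0.21, 0.040, 0.052, -0.021 and 0.16. Over all probes the same value was 0.25, 0.19 and 0.19 on the NPRA-/- arrays and between -0.029 and 0.039 on the NPRA+/+ arrays. On this scale NPRA-/- replicates 1 and 2 lay within the NPRA+/+ range and replicate 3 above it. Relative to the median of all probes on the same array, the matrix genes stood at -0.32, -0.11 and 0.35 on the NPRA-/- arrays and from -0.20 to 0.19 on the NPRA+/+ arrays, so that replicate 1 lay below that range. Against the brighter probes alone, replicate 1 at -0.12 was below the NPRA+/+ range of -0.081 to 0.16 too. Without replicate 3, 21 of 39 changes were above 0 and 4 of 39 above the median of all probes. Without replicate 1, 36 and 29 were. Within scan day 1, 34 and 26 were. In each of these settings 0 of 39 passed the threshold, with smallest adjusted p-values of 0.504, 0.151 and 0.0603 by limma. Over all probes, 0 were called without replicate 3 or without replicate 1, and 15.6% higher and 1.37% lower within scan day 1.

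**Figure D4:**
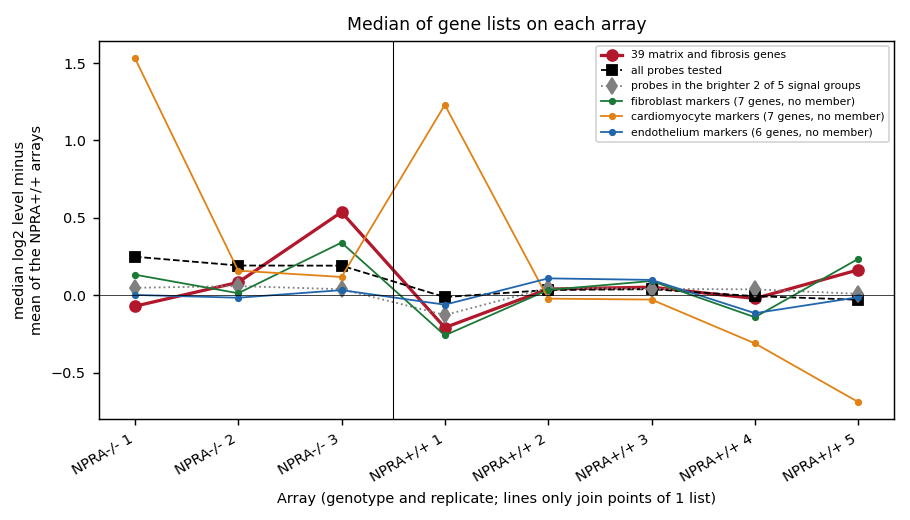
Median over each list of the log2 difference from the mean of the 5 NPRA+/+ arrays, by array; lines only join points of a list. The 39 matrix genes are at 0.54 on NPRA-/- replicate 3 and the cardiomyocyte markers at 1.53 and 1.23 on replicate 1 of the genotypes.

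Markers of cell types moved between the arrays too. The 7 fibroblast markers that are not among the 39 genes had medians of 0.13, 0.013 and 0.34 on the NPRA-/- arrays and of -0.26 to 0.24 on the NPRA+/+ arrays. This median was highest on NPRA-/- replicate 3 and NPRA+/+ replicate 5, as was that of the matrix genes, but single markers differed. Within the NPRA-/- arrays, 3 of 7 were highest on replicate 3, and Tcf21, Dpt, Gsn and Dcn on replicate 1. Within the NPRA+/+ arrays, Pdgfra, Tcf21 and Dpt were highest on replicate 5, and Gsn and Dcn were lowest there. All 8 fibroblast markers, Col1a1 among them, were well above background on all arrays, and 0 of 8 passed the test. The 6 tested markers of mesothelium and epicardium, the outer lining of the heart, had medians of 1.43, 1.82 and 2.58 on the NPRA-/- arrays and of -0.29 to 0.35 on the NPRA+/+ arrays. Msln (mesothelin) alone of them passed the threshold (2.48 ± 0.36, limma adjusted p = 0.0498), a call that was lost in 19 of 24 alternatives (limma adjusted p from 0.0203 to 0.451), and 3 of the 7 listed were well above background on all 8 arrays. Medians of the 7 cardiomyocyte markers were 1.53, 0.16 and 0.12 on the NPRA-/- arrays and 1.23, -0.022, -0.028, -0.31 and -0.69 on the NPRA+/+ arrays. Those of 6 endothelial markers lay between -0.12 and 0.11 on all arrays. The part of these cell types in the levels of the matrix genes was not tested.

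Replicate 1 of both genotypes also set some of the 39 genes apart. Both of these arrays lay below the other 6 for 11 of 39 genes (17.4% of all probes): Col5a1, Col4a1, Col6a1, Col6a3, Col14a1, Loxl1, Loxl2, Bgn, Lum, Fstl1 and Mmp14. Without them, 35 of 39 changes were above 0, 27 above the median of all probes and 0 called, and the median relative to all probes went from -0.041 to 0.077. Replicate and scan day cannot be told apart for these arrays.

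**Figure D5:**
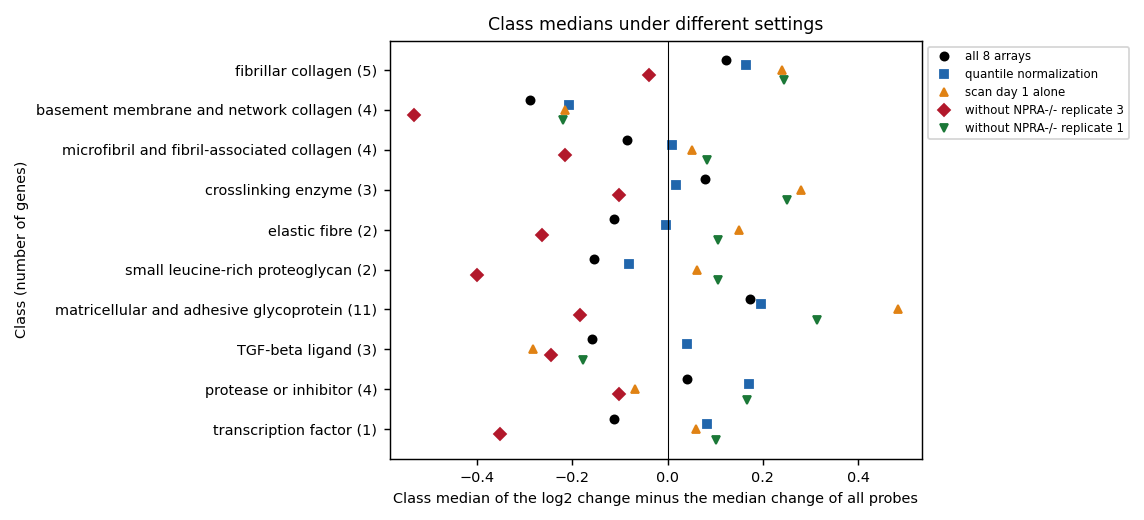
Median change of each class minus the median change of all probes (log2), with all 8 arrays and in 4 other settings; the number of genes is in brackets. The basement membrane and network collagens lie below 0 in all 5 settings, and the fibrillar collagens lie above 0 in 4 of these 5, with -0.040 without NPRA-/- replicate 3. With normexp, which is not plotted, the fibrillar median was -0.14.

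Of 115 other genes of the same pathways, 111 were tested and 0 were called in either direction by limma. At an unadjusted p of 0.05, 15 were higher (13.5%, against 18.3% of all probes) and 1 lower (0.901%, against 1.36%). Relative to all probes 47 of 111 were above 0, with a median of -0.062, close to that of the 39 genes. Sub-lists of these genes follow the classes above, and the gene with the smallest p in each of the 8 is given here.

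Among collagens and their processing, Col2a1, the cartilage fibril collagen, had a change of 0.94 ± 0.27 (limma adjusted p = 0.117), at -4.82, -4.52 and -3.95 against -5.83 to -4.99. Loxl3, a further lysyl oxidase, had 0.54 ± 0.14 (adjusted p = 0.1), at -2.45, -2.44 and -2.07 against -2.98 to -2.71. Lama4, a laminin chain of vessel and muscle basement membrane, had -0.29 ± 0.13 (adjusted p = 0.261), with the NPRA-/- arrays at 0.98, 0.84 and 1.07 below all NPRA+/+ arrays at 1.12 to 1.37. Each of these 3 genes had no overlap between the genotypes. Of the 111 tested, 12 had none with NPRA-/- higher and 2 with NPRA-/- lower, against 14.1% and 1.29% of all probes. Against probes of like signal, the changes were 0.313 for Col2a1, 0.314 for Loxl3 and -0.335 for Lama4.

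Fbn2, the fibrillin of developing tissue, stood at -1.88, -1.47 and -1.58 on the NPRA-/- arrays and at -0.76, -1.10, -1.004, -0.78 and -0.64 on the NPRA+/+ arrays. All NPRA-/- arrays were lower, with a change of -0.79 ± 0.16 (limma adjusted p = 0.0728). Mmp9, a gelatinase of inflammatory cells, stood at -5.02, -4.93 and -5.11 against -6.07 to -5.57, all NPRA-/- arrays higher, with 0.86 ± 0.14 (adjusted p = 0.0593), near background. Il11, a cytokine downstream of TGF-beta in fibroblasts, stood at 0.80, 1.54 and 1.47 against -0.020 to 0.96, with 0.91 ± 0.27 (adjusted p = 0.123). NPRA-/- replicate 1 was the one that overlapped for Il11. Acan, a cartilage proteoglycan, had 0.42 ± 0.14 (limma adjusted p = 0.163) and Cilp2, a relative of Cilp, 0.79 ± 0.21 (limma adjusted p = 0.102), both without overlap. Set against probes of like signal, the changes were -0.837 (Fbn2), 0.238 (Mmp9), 0.863 (Il11), 0.193 (Acan) and 0.389 (Cilp2).

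Some of these genes passed the threshold when arrays were left out. Without NPRA+/+ replicate 1, limma called 6 higher (Mmp9, Col27a1, Il11, Cilp2, Serpinh1 and Col18a1) and Fbn2 lower, but among all probes it then called 11% higher and 0.529% lower in place of 0.32% and 0.0283%. Serpinh1 encodes a collagen chaperone, Col27a1 a fibrillar collagen of cartilage and Col18a1 the basement membrane collagen that releases endostatin. Within scan day 1 the calls were Mmp9, Il11, Col27a1, Col18a1 and Adam12, a membrane protease, higher and Fbn2 lower, with changes of 0.97 ± 0.12 for Mmp9, 1.32 ± 0.17 for Il11 and -0.48 ± 0.10 for Fbn2, beside 15.6% of all probes called higher and 1.37% lower. Mmp9, Il11, Col27a1 and Col18a1 higher and Fbn2 lower were also called without replicate 1 of both genotypes, beside 11.2% of all probes called higher and 0.51% lower. None of the 39 matrix genes was called in these 3 settings. The calls within scan day 1 set slide 2 against slide 1, so a difference between slides cannot be told from one between genotypes.

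The RefSeq promoter table holds 22 of the 39 matrix genes, and 3 short motifs were searched in the 250 bases before each start. TATAAA on the gene's strand was found for 4 of the 22 (18.2%, against 8.9% of 27025 genes), namely Col3a1, Postn, Spp1 and Tgfb2. CCAAT on either strand was found for 7 (31.8%, against 37.5%), and CAGAC on either strand, a short form of the SMAD-binding letters, for 12 (54.5%, against 45.8%). A match is only a run of letters in this window. Col6a2, one of the pair without overlap between the genotypes, holds CAGAC before the upstream of its starts (GRCm38.p6, chr10:76623631-76623780, minus strand), shown here in its reverse form GTCTG in capitals.
Col6a2: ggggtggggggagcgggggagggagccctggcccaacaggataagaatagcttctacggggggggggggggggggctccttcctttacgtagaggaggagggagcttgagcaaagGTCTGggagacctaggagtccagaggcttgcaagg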

How the data were processed

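Each of the 8 samples was measured on 1 single-colour Agilent array. Per the file headers, the authors read the arrays out with Agilent Feature Extraction (version 11.0.1.1), and the deposited intensity of a spot is linear, background-subtracted within its array and unscaled between arrays, beside flags of 0 or 1. The deposited series table holds log2 values with scaling not given in the sources used here. Its columns ranked probes as the arrays did and each had a median of 7.04, while their centring stays unknown.

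After dropping control spots and outlier spots (which left no value of the 39 genes missing), each array's 75th percentile was subtracted on the log2 scale. Probes well above background on at least 3 arrays were tested in R 4.3.3 with lmFit and eBayes of limma 3.58.1 (genotype as the only term, two-sided, Benjamini-Hochberg over 35329 probes, threshold 0.05), and every adjusted p comes from it. The code was tested on simulated data. Of 39429 probes, 27234 matched 1 RefSeq symbol (GRCm38.p6) and 12195 none. Gene coordinates are not printed, because the array was designed on mm9. The brightest probe stood for a gene, and 7 of the 39 genes had more than 1.

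The 39 genes, the other lists and the rule for named genes were chosen with earlier results of these data known. The rule gave every array's value for the gene of smallest p and the brightest gene of each class and for the 8 smallest p-values of the 39, and, of other pathway genes, for the smallest p per sub-list.

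The labels call the samples biological repetitions but tie none to an animal. The p-values therefore cover only how far these samples differ, which may be technical. NPRA+/+ replicates 1, 2 and 3 share a source name number, and whether they share an animal is not stated. If they do, 5 NPRA+/+ arrays overstate the replication. Deviations of equally numbered samples correlated by 0.64, 0.28 and 0.36. Replicate 1 stood apart in both genotypes, and pairs of unequal number without a replicate 1 also correlated above 0, by 0.12 to 0.33. These values therefore cannot check for pairing, and the labels do not say that a number is shared. Alternatives were quantile and median scaling, normexp (offset 50, on the median signal, the mean not being in the columns analysed), the deposited table and other filters. Further ones were blocks for scan day, slide (inferred from equal scan times) and number, averaged NPRA+/+ arrays, a trended robust variance, and leaving out each array. Scan day 1 with quantile normalization, and leaving out replicate 1 of both genotypes, were added after the data were seen.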

Additional observations from a re-analysis of the deposited data

Results flagged for a closer look

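In 7 of the 48 matrix gene probes, 1 of the 5 NPRA+/+ arrays stood far from the other 4 by Dixon's test, which chance alone gives in about 1 of 20 groups. The gap was to the array's nearest neighbour, relative to the whole range of the group. NPRA+/+ replicate 1 was the low array for Tgfb1 (-4.67), Lum (1.70) and Fstl1 (2.82), and the high array for the dimmer Sparc probe (4.87). NPRA+/+ replicate 4 was low for the dimmer Col14a1 probe (-3.74) and for Col4a2 (-0.15). NPRA+/+ replicate 5 was low for Mmp2 (-2.98).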

How the results depend on the processing

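Under all 24 alternatives, 0 of the 39 matrix genes were called in either direction. Their smallest limma adjusted p lay between 0.0603 (scan day 1) and 0.676 (slide as a random block). In many alternatives 0 of all probes were called too, so the count of 0 there says nothing particular to the matrix genes. These were the other scalings, the scan day, slide and repetition number blocks, averaged arrays, trended robust variance, and leaving out any 1 array but NPRA+/+ replicate 1. Their median relative to all probes was -0.041, -0.202 to 0.125 when 1 array was left out, and 0.193 in scan day 1 with quantile normalization. With the replicate number as a block it was -0.016 (repetition numbers) or -0.106 (source name numbers), and the block changed no call of these genes. The fitted change kept its sign for 13 of the 39 genes, though some of the settings could not move it, as given above. Of the 19 genes named with values on every array, 10 turned in 43 values, and the cause was not tested. With quantile normalization Col6a2 was -0.048 and Bgn -0.123. With median scaling the values were Col6a1 -0.206, Col6a2 -0.042, Loxl1 -0.242, Fbn1 -0.151, Bgn -0.151, Tgfb2 -0.143, Tgfb3 -0.235, Fap -0.128 and Meox1 -0.189. Normexp gave Col6a1 -0.017 and Meox1 -0.028, and the deposited table Col6a2 -0.039 and Bgn -0.113. Lum and Tgfb3 were 0.243 and -0.245 with scan day as a block or day 1 alone, 0.253 and -0.255 in day 1 with quantile normalization (Col6a2 -0.157, Bgn -0.010), 0.062 and -0.003 with repetition number as a replicate block, and 0.21 and -0.10 without replicate 1 of both genotypes. Loxl1 was -0.046 and Fbn1 -0.012 with slide as a random block, and Loxl1 was -0.097 with the source name replicate block and -0.055 with averaged NPRA+/+ arrays. Leaving out 1 array gave -0.329 to 0.312 for Lum, -0.033 to 0.166 for Tgfb3, -0.020 to 0.184 for Col6a1, -0.192 to 0.311 for Loxl1, -0.068 to 0.461 for Fbn1, -0.032 to 0.274 for Bgn, -0.101 to 0.386 for Tgfb2 and -0.132 to 0.288 for Meox1. Of the other pathway genes, 0 to 6 were called higher and 0 to 1 lower when 1 array was left out. In scan day 1 it was 5 and 1, and without replicate 1 of both genotypes 4 and 1. Calls over all probes went from 113 higher and 10 lower to 0 with quantile normalization and to 3901 higher and 187 lower without NPRA+/+ replicate 1. Only Cthrc1 of the 39 was not well above background on every array. Other dim genes also moved with scaling and background correction. Tgfb1 went from -0.370 with quantile normalization to 0.434 with normexp, and Col15a1 from -0.484 to 0.347.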
